A study of Mus musculus with 14 samples.

Results

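Oxidative phosphorylation is carried out by 5 protein complexes of the mitochondrial inner membrane, and the genes described here are their nuclear subunit genes, followed across mouse gastric tumours. Members were chosen by symbol alone: Nduf genes of the a, b, c, s and v series, Sdha to Sdhd, Uqcr genes, Cox4 to Cox8 genes whose number is followed by a, b or c, and Atp5 genes. This gave 82 of 24421 entries, of which 35 belong to complex I, 4 to complex II, 8 to complex III, 17 to complex IV and 15 to complex V. Of the other 3, Ndufa4l2 is a relative of the complex IV subunit Ndufa4, while Atp5s and Atp5sl carry the Atp5 name without being parts of the enzyme. A mean of at least 5 CPM (a gene's counts scaled to a common library size) was reached by 75 members, and 2 members, Cox7b2 and Cox8c, had 0 counts in all 12 libraries.

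Tumours were grown from transplants either under the skin (subcutaneous) or at the organ site (orthotopic), and polyA RNA was sequenced from tissue taken 2 months later. The 12 bulk libraries form 4 groups of 3, with tumours labelled TM, TMP and TMPC taken from under the skin and a further TMPC group from the organ site. What the letters stand for is not in the labels, and neither are host strain and age, so they serve as names only. Whether the 3 replicates of a group are separate animals is also not said; the p-values therefore cover the spread of these samples, and that spread may be technical.

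Complexes I and II take electrons from NADH and succinate, complex III passes them to cytochrome c, and complex IV gives them to oxygen. Complexes I, III and IV pump protons, and complex V, the ATP synthase, uses the return flow to make ATP. A few core subunits of complexes I, III, IV and V are encoded by the mitochondrial genome, while complex II and all other subunits are encoded in the nucleus. The list of genes encoded in mitochondria had 0 of 13 members in the tables, so the nuclear side is what is described.

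Total counts ranged from 16584781 to 21107310 per library, and 3 counts correspond to 0.142 to 0.181 CPM. Replicate 2 of the TM group stood apart: its summed adipocyte markers reached 7220 CPM against 16.2 to 192 CPM elsewhere, and its summed epithelial markers 280 CPM against 1110 to 7890 CPM. It also had 0 counts in 4 of 4 Y-linked genes. The lack of Y-linked counts is given for this library only. Over the whole TM group the 4 genes were below TMP by at most 2.26 (log2 fold change). Xist, a gene of female cells, stood at 189 to 1440 CPM in the TM libraries against at most 13.4 CPM in all others. The sex of the cells, or a mix of sexes, therefore cannot be told apart from the TM label. Orthotopic replicate 3 held liver markers at a sum of 11200 CPM, against 1.67 to 130 CPM in the other 11 libraries. Counts are given below with and without these 2 libraries. In bulk tissue, fewer cells of a type and less RNA per cell cannot be told apart.

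Promoter sequences are shown first for 5 members whose levels behaved differently. The 3 Atp5g genes encode the same mature c subunit of the ATP synthase rotor and differ in their targeting peptides. Ndufs6, a small zinc-binding accessory subunit of complex I, had the second largest rise of its complex in TMPC against TM tumours, and Sdhd, a membrane anchor of complex II, did not pass in any comparison. Each run covers 250 bases before to 50 after the RefSeq start site (RefSeq sequence, GRCm38.p6, all on the minus strand): chr11:96075582-96075881 for Atp5g1, chr15:102670998-102671297 for Atp5g2, chr2:73911277-73911576 for Atp5g3, chr13:73328433-73328732 for Ndufs6 and chr9:50603800-50604099 for Sdhd. Capitals mark matches to motifs of NRF1 (GCGCA and GCGC with 1 base of any kind between), ETS factors (CCGGAAG), YY1 (AAGATGGC) or E-box factors (CACGTG), searched on both strands.
Atp5g1: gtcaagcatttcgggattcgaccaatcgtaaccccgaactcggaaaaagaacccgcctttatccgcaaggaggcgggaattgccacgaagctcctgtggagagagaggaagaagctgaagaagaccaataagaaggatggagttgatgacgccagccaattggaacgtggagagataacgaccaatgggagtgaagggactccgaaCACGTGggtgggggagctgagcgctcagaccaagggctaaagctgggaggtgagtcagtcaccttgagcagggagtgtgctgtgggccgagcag
Atp5g2: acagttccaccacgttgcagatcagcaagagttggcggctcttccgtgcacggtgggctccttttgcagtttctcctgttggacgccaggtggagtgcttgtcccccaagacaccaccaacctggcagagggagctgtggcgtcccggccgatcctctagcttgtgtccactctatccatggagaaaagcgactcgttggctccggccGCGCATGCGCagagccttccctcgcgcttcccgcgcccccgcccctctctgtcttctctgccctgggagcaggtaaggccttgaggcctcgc
Atp5g3: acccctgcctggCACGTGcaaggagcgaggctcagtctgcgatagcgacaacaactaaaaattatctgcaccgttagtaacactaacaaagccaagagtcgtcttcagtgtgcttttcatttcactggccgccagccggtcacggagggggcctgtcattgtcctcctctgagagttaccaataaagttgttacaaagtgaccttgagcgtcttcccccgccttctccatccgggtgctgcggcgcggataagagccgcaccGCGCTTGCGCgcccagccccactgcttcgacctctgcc
Ndufs6: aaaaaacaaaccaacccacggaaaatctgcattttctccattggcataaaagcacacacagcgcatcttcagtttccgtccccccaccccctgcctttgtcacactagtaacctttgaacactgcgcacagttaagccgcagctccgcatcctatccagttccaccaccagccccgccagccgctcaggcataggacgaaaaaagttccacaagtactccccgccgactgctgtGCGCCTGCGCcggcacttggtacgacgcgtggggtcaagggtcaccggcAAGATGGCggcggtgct
Sdhd: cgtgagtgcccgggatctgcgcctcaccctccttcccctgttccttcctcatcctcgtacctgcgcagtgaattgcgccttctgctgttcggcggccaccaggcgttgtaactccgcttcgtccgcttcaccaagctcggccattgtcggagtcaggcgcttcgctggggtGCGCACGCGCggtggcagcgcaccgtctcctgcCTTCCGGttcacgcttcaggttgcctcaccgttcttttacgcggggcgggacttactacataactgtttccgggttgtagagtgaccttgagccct
An E-box match stood at position -44 of Atp5g1, counted from the start site, and an NRF1 match at -42 of Atp5g2. Atp5g3 held an NRF1 match at 13 and an E-box match at -238. Ndufs6 held an NRF1 match at -16 and a YY1 match at 34, while Sdhd held NRF1 at -79 and ETS at -46. None of these matches overlapped another.

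Promoters were matched for 68 members, and 17 of them (25.0%) held the NRF1 motif, against 10.0% of 11886 promoters of tested genes and 5.19% of all 27025. NRF1 is a transcription factor known for binding promoters of nuclear respiratory genes. Matches stood in 6 of 14 complex V promoters, 7 of 31 of complex I and 1 of 14 of complex IV. The YY1 motif was in 14.7% of member promoters against 4.62% of tested genes, and all 10 of these were promoters of complex I (7) or complex V (3). The ETS motif was in 23.5% against 17.4%, the CREB motif (TGACGTCA) in 5.88% against 3.39%, and the E-box in 8.82% against 11%. Among the 20 matched members that rose in TMPC against TM tumours, 3 held the NRF1 motif, and among the other 48 it was 14. These counts are descriptions of letters in a window, with no test.

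Members together took 0.838%, 0.861% and 0.936% of all counts in TM replicates 1, 2 and 3. They took 1.23%, 1.078% and 1.248% in the TMP libraries and 1.129%, 1.259% and 1.42% in the subcutaneous TMPC libraries. In orthotopic TMPC tumours the share was 1.015%, 1.066% and 0.908%. The subcutaneous TMP and TMPC libraries all stood above the TM and orthotopic ones, which overlapped. By complex, the median level per kb of exon was lowest for complex I (29.1 to 58.9 CPM per kb over the 12 libraries) and highest for complex IV (98.4 to 176). Complex II lay at 43.0 to 72.1, complex V at 59.0 to 136 and complex III at 70.0 to 144 CPM per kb. These ranges overlap between neighbours in the order. A gene's length here is all its annotated exon bases, merged over its transcripts, for example 5628 bases for Ndufb2. The order of complexes and all values per kb therefore depend on the annotation. Atp5b, the catalytic beta subunit of the ATP synthase, reached the highest CPM of any member (986 to 2240). Per kb its 12-library mean of 355 was close to those of Cox6a1 (362) and Cox8a (361), 2 small complex IV subunits. The heat map of levels by library shows the shared pattern.

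**Figure D1:**
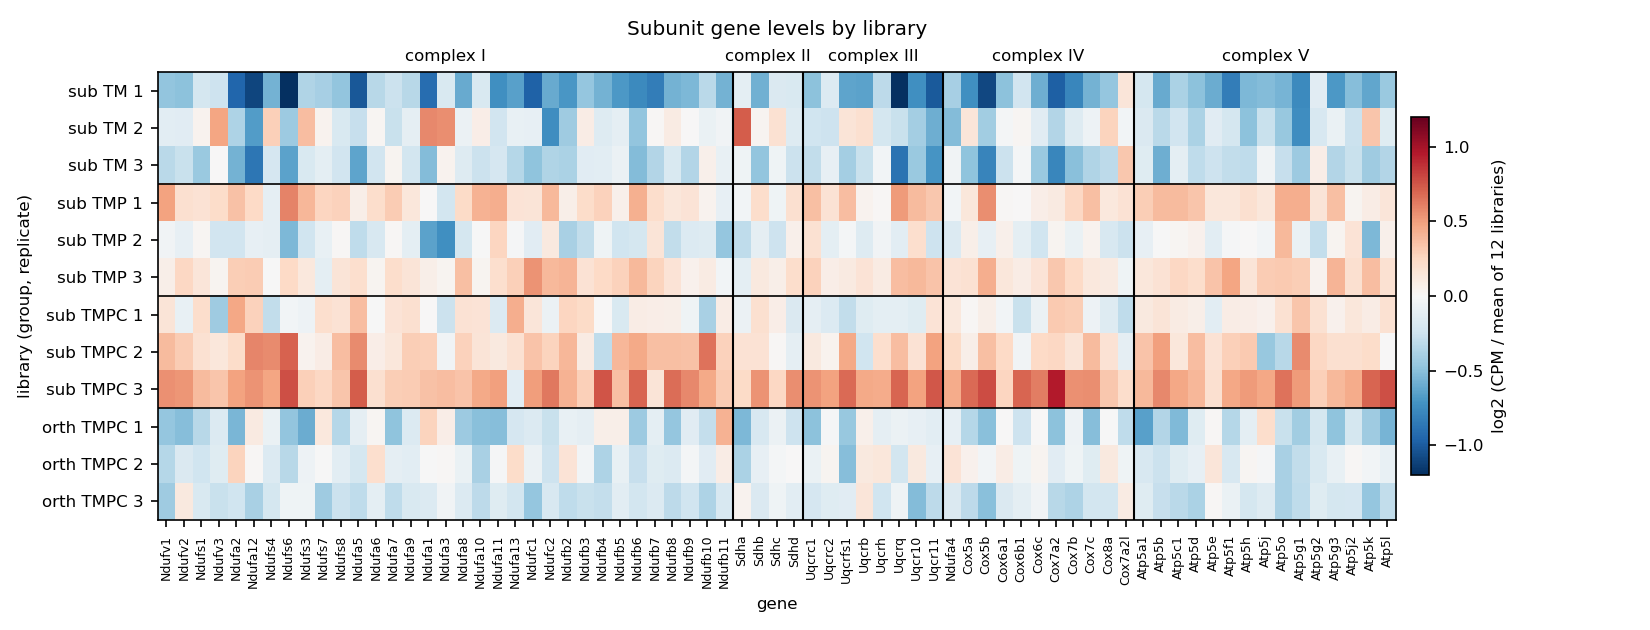
Heat map of the log2 ratio of each member's CPM to its mean over 12 libraries, for 71 enzyme subunits with a mean of at least 5 CPM, ordered by complex, with 1 row per library (sub, subcutaneous; orth, orthotopic). TM replicate 1 holds the lowest value of 51 of 75 members, and subcutaneous TMPC replicate 3 the highest of 50.

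Libraries of 1 group did not lie level. TM replicate 1 was the lowest of the 12 libraries for 51 of the 75 members with a mean of at least 5 CPM, and TM replicate 2 the highest of its group for 54. TMP replicate 2 was the lowest of its group for 68 and subcutaneous TMPC replicate 1 for 58. Subcutaneous TMPC replicate 3 was the highest of all 12 for 50. Epcam, an epithelial surface protein, stood at 53.2 CPM in TM replicate 2 and 116 CPM in subcutaneous TMPC replicate 1, against 460 to 667 CPM elsewhere. Skeletal muscle markers, from a tissue rich in mitochondria, summed to 332 CPM in TMP replicate 2 and to 403 and 293 CPM in subcutaneous TMPC replicates 2 and 3, against 22.5 to 68.8 CPM in the other libraries. Their part in the member levels was not tested.

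Pairs of members moved together across libraries. The median correlation of log2 CPM over 12 libraries was 0.69 within complex I (561 pairs), 0.76 within complexes III, IV and V, and 0.54 within complex II (6 pairs). Between complexes the medians lay between 0.57 and 0.76. These points share libraries and scaling, so the values are descriptions. Cox5b, a zinc-binding subunit of complex IV, had the highest median correlation with the 74 other members (0.85). Atp5sl (-0.29) and Atp5s (-0.16), the pair outside the enzyme, had the lowest, followed by Cox7a2l (-0.01), Ndufa3 (0.13) and Sdha (0.19).

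Between TMP and TM tumours under the skin, some subunits of complexes I, III, IV and V were higher in TMP. They were led by Ndufa12, Uqcr11, Cox5b and Atp5g1, and the Ndufa4 relative Ndufa4l2 was higher too. Counts were compared by the quasi-likelihood test of edgeR, with adjusted p-values (Benjamini-Hochberg over all genes) called at 0.05. In this comparison 14 of 79 tested members were higher, or 17.7% against 14.3% of all 15277 genes tested. Of the members 0 were lower, against 13.4% of all genes. The share called is near the background, but the members lay to 1 side: 67 had a log2 fold change above 0, against 46.9% of all genes, with a median of 0.34 against -0.07. TMP and TM libraries did not overlap for 36 members that were higher and 1 that was lower, against 28.2% and 22.5% of all genes. Of the 14, 4 were among 34 tested in complex I (11.8%) and 0 among 4 in complex II. Complex III gave 2 of 8 (25.0%), complex IV 2 of 15 (13.3%) and complex V 5 of 15 (33.3%), with Ndufa4l2 as the last. The shares of complexes I, II and IV were below the 14.3% of all genes.

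Subcutaneous TMPC tumours against TM gave 24 of 79 members higher, or 30.4% against 18% of all genes, and 0 lower, against 17.8%. The median log2 fold change was 0.48 against -0.07, and 72 members lay above 0, against 47.2% of all genes. Of the 24, 11 were among 34 tested in complex I (32.4%) and 0 among 4 in complex II. Complex III gave 3 of 8 (37.5%), complex IV 4 of 15 (26.7%) and complex V 5 of 15 (33.3%), again with Ndufa4l2 as the last. The groups did not overlap for 46 members that were higher and 1 that was lower (25.9% and 21.6% of all genes). Both comparisons use the same 3 TM libraries, so they are not independent of each other. In TMPC against TMP no member passed by edgeR (0 of 79, with 0.0% of all genes), and 1 member, Ndufa5 (0.55 ± 0.23), had an unadjusted p under 0.05, against 3.04% of all genes. DESeq2 also called 0 members there and 17 of 20070 genes. The members' median in TMPC against TMP was 0.15, with 64 above 0 against 50.7% of all genes, and 5 did not overlap on the higher side, against 6.18%.

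Both counts against TM moved with single libraries. Without TM replicate 2, 26 members were higher in TMP and 42 in TMPC (16% and 20.7% of all genes). Without TM replicate 1 or 3 the TMP count was 4 and 5 (11.4% and 10.8% of all genes), and without TMP replicate 1 or 3 it was 2 each (6.75% and 7.99%). Without TMPC replicate 3 the TMPC count was 13 higher (14.2% of all genes) and 1 lower. Ndufa12 and Ndufa4l2 passed in all 16 alternatives for TMP, and 13 of the 24 TMPC calls did, among them Ndufa12, Ndufa5, Uqcr11, Cox5b, Cox7a2, Atp5b, Atp5d, Atp5h and Atp5g1. Summed cell division markers were 404 to 560 CPM in TM, 1780 to 2160 in TMP and 2240 to 2560 in subcutaneous TMPC libraries. Macrophage and monocyte markers summed to 3860 to 7990 CPM in TM against 845 to 1720 in the other subcutaneous libraries. Of 17 tested skeletal muscle markers 3 were higher in TMP and 7 in TMPC against TM (medians 3.43 and 3.93). Their part in the member changes was not tested.

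Orthotopic TMPC tumours were set against subcutaneous TMPC tumours, which compares 2 sites under 1 label. Of 78 tested members 11 were lower, or 14.1% against 13.8% of all 15123 genes, and 1 was higher (14.0% of all genes). The number of calls does not stand out from the background, but the members lay to 1 side. Of them, 68 lay below 0, against 47.9% of all genes, with a median of -0.38 against 0.05. Here and against TM, members moved together across libraries, so they are not separate observations. Whether these shifts exceed the background was not tested. The sites did not overlap for 38 members that were lower and 2 that were higher, against 26.5% and 22.3% of all genes. Of the 11 lower members, 7 were among 34 tested in complex I (20.6%). Complex IV gave 2 of 14 (14.3%) and complex V 2 of 15 (13.3%), both near the background, and complexes II and III gave 0. No member call of this comparison held in all 12 alternatives, and the count moved with single libraries. Without orthotopic replicate 1 or 2 the count of lower members was 0, against 3.67% and 0.643% of all genes, and without orthotopic replicate 3 it was 7 (14.0%). Without subcutaneous replicate 1 it was 16 (11.6%), and without replicate 2 or 3 it was 2 each (6.16% and 6.72%). This comparison shares the subcutaneous TMPC libraries with that of TMPC against TM. Cell division markers summed to 675 to 1080 CPM in orthotopic libraries, all below the subcutaneous TMPC libraries. Parietal cell markers, from an acid-secreting gastric cell rich in mitochondria, summed to 816, 776 and 253 CPM in the orthotopic libraries against 44.9 to 65.8 CPM in the subcutaneous TMPC ones. Skeletal muscle markers moved the same way as the members: 10 of 16 tested were lower in orthotopic tumours (median -4.03), and their sums were 22.7 to 29.3 CPM there against 68.8, 403 and 293 CPM. The part of these in the result was not tested.

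**Figure D2:**
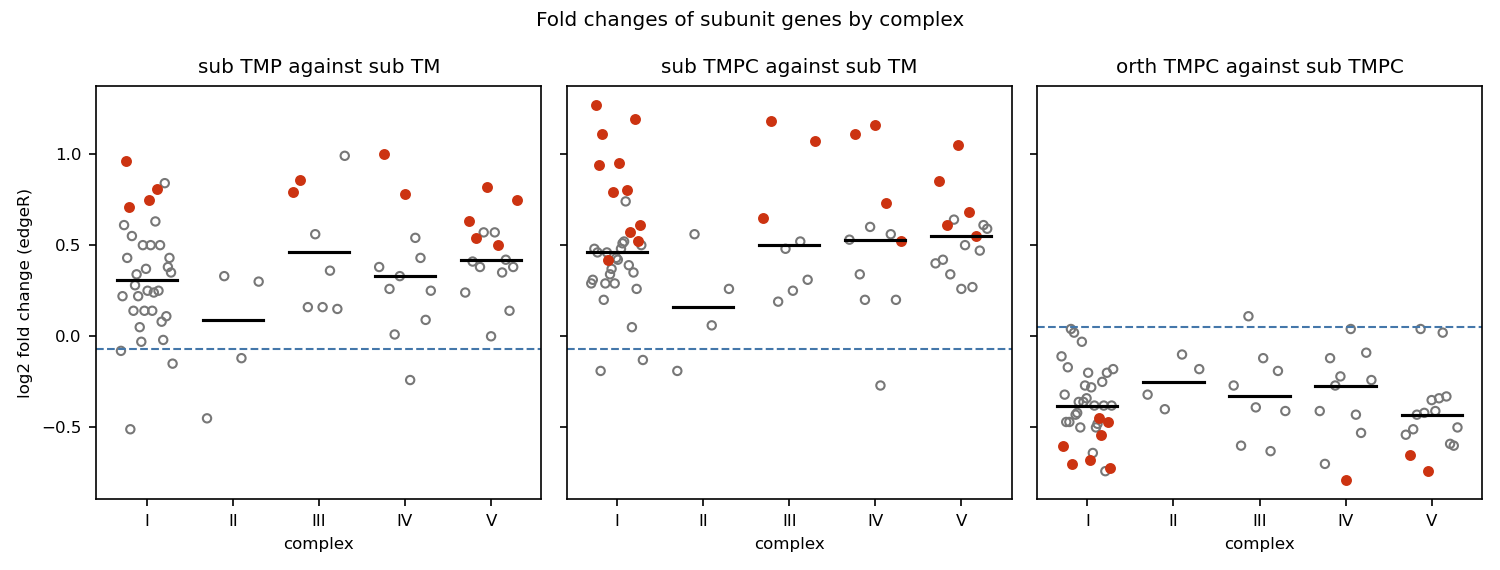
Log2 fold changes (edgeR) by complex in 3 comparisons, for members with a mean of at least 5 CPM: filled red points passed an adjusted p of 0.05, open points did not, black bars are medians per complex and the dashed line is the median of all genes tested. Most members lie above the dashed line in both comparisons with TM and below it between sites. Complex II, with only 4 members, has no filled point.

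Complex I, the NADH dehydrogenase, was followed in its modules. In TMPC against TM 4 of 8 members of the N module, which binds NADH, rose, as did 4 of 8 of the Q module, which reduces ubiquinone, and 3 of 18 tested members of the membrane arm, against 18% of all genes. The membrane arm is thus at the background. The medians were 0.55, 0.36 and 0.46. Between sites 2, 3 and 2 members of these modules were lower in orthotopic tumours, against 13.8% of all genes.

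Ndufa12, an accessory subunit of the N module on chromosome 10 (94198720 to 94221443, mm10), stood at 38.7, 52.0 and 45.5 CPM in TM replicates 1 to 3. It stood at 97.9, 77.3 and 102 CPM in TMP, at 100, 124 and 120 CPM in subcutaneous TMPC, and at 89.2, 83.9 and 63.3 CPM in orthotopic TMPC tumours. All other libraries were above the TM libraries. The rise was 0.96 ± 0.18 (log2, SE; adjusted p = 0.0084) in TMP and 1.27 ± 0.18 (adjusted p = 0.00206) in TMPC tumours, and the site difference of -0.47 ± 0.18 did not pass (adjusted p = 0.0923). It was the largest rise of complex I in both comparisons.

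Ndufv1, the flavoprotein that takes electrons from NADH, stood at 80.0, 102 and 88.9 CPM in TM and at 155, 108 and 117 CPM in TMP libraries. Subcutaneous TMPC libraries held 124, 145 and 163 CPM and orthotopic ones 80.8, 87.6 and 82.6 CPM. The sites did not overlap. Ndufv1 fell by 0.72 between sites (log2, SE 0.15, adjusted p = 0.0191), the largest fall past the threshold in its complex. Its rise was 0.61 ± 0.19 in TMPC against TM (adjusted p = 0.0375), while in TMP the value of 0.43 ± 0.19 did not pass.

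Ndufa5, an accessory subunit of the Q module, stood at 26.8, 44.8 and 35.1 CPM in TM, 56.9, 43.9 and 62.5 in TMP, 70.3, 80.2 and 89.9 in subcutaneous TMPC and 50.4, 46.9 and 43.9 in orthotopic TMPC libraries. The subcutaneous TMPC libraries were the 3 highest of the 12. It rose by 1.11 ± 0.23 in TMPC against TM (adjusted p = 0.00954) and fell by 0.70 between sites (SE 0.15, adjusted p = 0.022). Ndufs6 rose by 1.19 ± 0.35 in TMPC against TM (adjusted p = 0.0318), from 31.9 ± 8.48 to 76.1 ± 21.3 CPM (SD, n = 3). In TMP its 0.84 ± 0.35 did not pass, with replicate 2 at 36.4 CPM against 79.5 and 62.4. Ndufc2, a membrane arm subunit, rose by 0.81 ± 0.20 in TMP and 0.80 ± 0.20 in TMPC tumours (adjusted p = 0.0212 and 0.0165).

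Other complex I members did not follow. Ndufa3 stood at 38.8, 65.0 and 45.4 CPM in TM libraries and between 26.5 and 57.1 CPM in all others, with fold changes of -0.51, -0.19 and 0.04 that did not pass. Ndufv3 gave -0.15, -0.13 and -0.18 in the same 3 comparisons. Ndufs5 had 1 count in all 12 libraries together, although it encodes a constitutive accessory subunit. In the GENCODE annotation 12.7% of its 100-base stretches also occur in another gene, BC002163, and the cause of the near absence was not tested.

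Complex II, which also works in the citric acid cycle, had 0 of 4 members past the threshold in each of the comparisons as fitted. Of all genes 14.3% and 18% were higher in TMP and TMPC against TM, and 13.8% were lower between sites. With only 4 members, 0 calls do not stand out from these shares. Sdha, the flavoprotein that oxidises succinate, stood at 199, 358 and 208 CPM in TM libraries, with TM replicate 2 the highest of all 12. The other libraries held 211, 175 and 199 CPM in TMP, 205, 244 and 254 in subcutaneous TMPC, and 149, 166 and 223 in orthotopic TMPC tumours. Every group overlapped its neighbour. The differences were -0.45 (approximate 95% interval -0.93 to 0.04) in TMP and -0.19 (-0.68 to 0.30) in TMPC against TM, and -0.32 (-0.70 to 0.06) between sites. These intervals rest on a normal approximation and are too narrow for so few libraries. Without TM replicate 2 the first 2 became -0.09 and 0.18. Sdhb, the iron-sulphur subunit, gave 0.33, 0.56 and -0.40, and the anchors Sdhc (-0.12, 0.06, -0.10) and Sdhd (0.30, 0.26, -0.18) lay closer to 0, and none of these passed. Sdhb did pass as higher in 7 of 16 alternatives for TMPC (0.81 ± 0.17 without TM replicate 2, adjusted p = 0.00736, range over alternatives 0.00736 to 0.146) and in 1 of 16 for TMP (0.56 ± 0.17 without TM replicate 2, adjusted p = 0.0364). Whether complex II differs from the other complexes was not tested.

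Complex III, the cytochrome bc1 complex, had 2 of 8 members higher in TMP and 3 of 8 in TMPC against TM (14.3% and 18% of all genes), and 0 of 8 past the threshold between sites (13.8% lower). With 8 members these counts are small. Uqcr11, a small accessory subunit, stood at 47.3, 63.3 and 58.4 CPM in TM, 119, 80.3 and 121 in TMP, 107, 133 and 160 in subcutaneous TMPC and 87.5, 89.2 and 76.6 in orthotopic TMPC libraries. All 9 other libraries lay above the TM libraries. It rose by 0.86 ± 0.22 in TMP (adjusted p = 0.0256) and 1.18 ± 0.22 in TMPC tumours (adjusted p = 0.0064). Uqcrq, another small subunit, rose by 1.07 ± 0.34 in TMPC (adjusted p = 0.0394) and Uqcr10 by 0.79 ± 0.19 in TMP (adjusted p = 0.0192). The core protein Uqcrc2 and the iron-sulphur protein Uqcrfs1 gave 0.16 and 0.36 in TMP, 0.25 and 0.52 in TMPC, and -0.12 and -0.63 between sites, with none past the threshold.

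**Figure D3:**
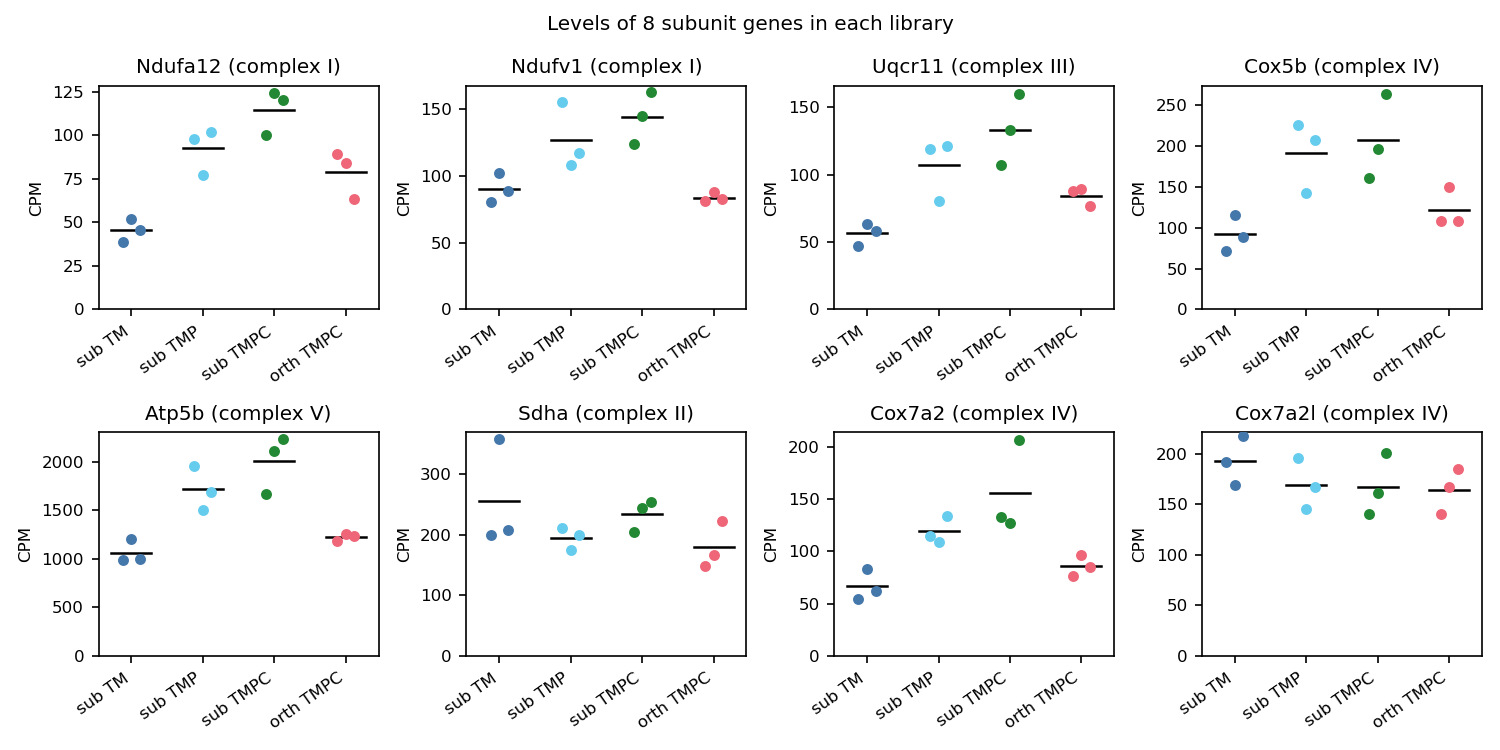
CPM of 8 subunit genes in each library, with 1 point per library and black bars for group means (n = 3). The 3 TM points are the lowest for Ndufa12 and Uqcr11, and the TM mean is the lowest for Cox5b, Atp5b and Cox7a2, while Sdha has its highest point in TM replicate 2 and Cox7a2l overlaps across all 4 groups.

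Complex IV, cytochrome c oxidase, holds widely expressed subunits and isoforms of muscle, heart, testis or other tissues. Of the 11 widely expressed members 2 rose in TMP and 4 in TMPC against TM, with medians of 0.33 and 0.53, and 1 fell between sites (median -0.27). Beside the 14.3%, 18% and 13.8% of all genes, the TMP and site counts are near the background. Cox5b stood at 71.7, 115 and 88.6 CPM in TM, 226, 143 and 207 in TMP, 161, 197 and 264 in subcutaneous TMPC and 108, 150 and 108 in orthotopic TMPC libraries. Subcutaneous TMP and TMPC libraries did not overlap with TM. It rose by 1.00 ± 0.27 (adjusted p = 0.0298) in TMP and 1.11 ± 0.27 (adjusted p = 0.0165) in TMPC tumours, and the -0.70 ± 0.24 between sites did not pass (adjusted p = 0.0678). Cox6b1 and Cox8a, also parts of the enzyme, gave 0.01 and 0.09 in TMP and 0.20 each in TMPC tumours, without passing.

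Cox7a2 and Cox7a2l are relatives with different places: Cox7a2 is the widely expressed subunit, while Cox7a2l, also called SCAF1, links complexes III and IV in supercomplexes. Cox7a2 stood at 54.3, 83.5 and 62.1 CPM in TM, 115, 109 and 134 in TMP, 133, 127 and 206 in subcutaneous TMPC and 76.0, 96.9 and 84.6 in orthotopic TMPC libraries. It rose by 0.78 ± 0.25 in TMP (adjusted p = 0.0475) and 1.16 ± 0.25 in TMPC (adjusted p = 0.00999) and fell by 0.79 between sites (SE 0.23, adjusted p = 0.045). Cox7a2l stood at 192, 169 and 217 CPM in TM, and between 140 and 201 CPM in the other 9 libraries. Its changes were -0.24 (approximate 95% interval -0.60 to 0.12), -0.27 (-0.63 to 0.09) and 0.04 (-0.34 to 0.41), and none passed. As a share of the CPM per kb of both genes, Cox7a2l made up 64.9% ± 7.45 in TM, 47.6% ± 4.10 in TMP, 41.1% ± 3.31 in subcutaneous TMPC and 54.9% ± 3.03 in orthotopic TMPC tumours (SD, n = 3). The difference in change between the genes was not tested.

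Ndufa4, now counted with complex IV, rose by 0.52 ± 0.17 in TMPC against TM (adjusted p = 0.0435), from 145 ± 25.7 to 216 ± 25.0 CPM. The call is not firm, since Ndufa4 passed in only 6 of 16 alternatives (adjusted p up to 0.114). Its relative Ndufa4l2 is known as a gene induced in low oxygen through HIF-1. It stood at 5.89, 3.24 and 8.80 CPM in TM and at 97.5, 71.7 and 79.4 CPM in TMP libraries. Subcutaneous TMPC libraries held 17.3, 137 and 151 CPM and orthotopic ones 123, 32.5 and 22.2 CPM. All 9 others lay above TM, but the TMPC groups were widely spread, with replicate 1 low under the skin and high at the organ site. Ndufa4l2 rose by 3.73 ± 0.75 in TMP (adjusted p = 0.0118) and 4.03 ± 0.76 in TMPC against TM (adjusted p = 0.00633), the largest member changes with a mean of at least 5 CPM. Between sites the -0.71 ± 0.92 did not pass. Its share of both Ndufa4 genes was 3.18 to 6.01% in TM and 33.4 to 41.2% in TMP libraries, and 10.1, 45.2 and 43.9% in subcutaneous TMPC libraries. Glycolysis genes, many of which are also known to respond to low oxygen, summed to 4020 to 6870 CPM in TM, 12400 to 18400 in TMP and 11500, 18500 and 21400 in subcutaneous TMPC libraries. Of 17 tested, 8 were higher in TMP and 10 in TMPC against TM, beside 14.3% and 18% of all genes. At the orthotopic site 4 were lower and 1 was higher, beside 13.8% and 14.0% of all genes. Whether low oxygen has a part in any of these levels was not tested.

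Tissue isoforms of complex IV were low, apart from Cox8b in TM replicate 2. Cox6b2, the testis isoform, had 88, 65 and 31 counts in orthotopic and 13, 7 and 3 in subcutaneous TMPC libraries, or 3.75, 2.94 and 1.75 CPM against 0.749, 0.381 and 0.154. This was the member that was higher at the orthotopic site (2.78 ± 0.67, adjusted p = 0.0276). Cox8b, the heart and skeletal muscle isoform, had 288 counts (19.9 CPM) in TM replicate 2, the library with adipocyte markers, and 0 in the other TM libraries. It had 9, 16 and 16 counts in subcutaneous and 0, 0 and 2 in orthotopic TMPC libraries, and passed as lower there (adjusted p = 0.0298). In TMPC against TM its fitted value turned from -3.25 ± 2.10 to 6.82 ± 1.65 without TM replicate 2, so no direction is given for it. Cox6a2, the muscle isoform, and Cox7a1 stayed at or under 1.63 CPM, and neither passed where tested. Cox6a2 was too low to be tested between sites, and in 1 of the 7 alternatives that kept it there it was lower (adjusted p = 0.0458).

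Complex V, the ATP synthase, had 5 of 15 members higher in TMP and 5 in TMPC against TM (14.3% and 18% of all genes), and 2 lower between sites (13.8%). The same 4 genes, Atp5b, Atp5d, Atp5h and Atp5g1, were among both sets of 5, with Atp5o as the fifth in TMP and Atp5j2 in TMPC. All 15 values in TMPC against TM lay above 0. Atp5b (chromosome 10, 128083273 to 128090391, mm10) stood at 986, 1200 and 998 CPM in TM and 1960, 1500 and 1690 in TMP libraries. Subcutaneous TMPC libraries held 1670, 2110 and 2240 CPM and orthotopic ones 1180, 1260 and 1240 CPM. The subcutaneous TMP and TMPC libraries overlapped neither with TM nor with the orthotopic ones. Atp5b rose by 0.63 ± 0.19 (adjusted p = 0.0378) in TMP and 0.85 ± 0.19 (adjusted p = 0.0107) in TMPC tumours and fell by 0.65 between sites (SE 0.18, adjusted p = 0.0426). Without orthotopic replicate 3 the site difference was -0.66 and no longer passed (adjusted p = 0.0647). Atp5d and Atp5h, parts of the central and peripheral stalks, rose by 0.54 and 0.50 in TMP and by 0.61 and 0.68 in TMPC tumours. Atp5a1, the alpha subunit, gave 0.24, 0.40 and -0.54, and Atp5e, the epsilon subunit, 0.38, 0.34 and 0.04, without passing.

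The 3 genes of the c ring, whose promoters are printed above, were at different levels and changed unequally. Atp5g1 (chromosome 11, 96068852 to 96075670, mm10) stood at 70.5, 71.5 and 88.5 CPM in TM, 162, 113 and 147 in TMP, 151, 177 and 170 in subcutaneous TMPC and 89.8, 97.3 and 97.1 in orthotopic TMPC libraries. The subcutaneous TMP and TMPC libraries lay above all TM and orthotopic ones. It rose by 0.82 ± 0.17 (adjusted p = 0.0128) in TMP and 1.05 ± 0.17 (adjusted p = 0.0035) in TMPC tumours, and fell by 0.74 between sites (SE 0.13, adjusted p = 0.0135). The site call held in 10 of 12 alternatives, as the most frequent of the 12 member calls. Atp5g2 stood at 170, 164 and 198 CPM in TM and 208, 153 and 193 in TMP, which overlapped. Its changes of 0.00 (approximate 95% interval -0.29 to 0.30), 0.26 (-0.04 to 0.55) and -0.35 (-0.59 to -0.12) did not pass after adjustment. Atp5g3 gave 0.57, 0.50 and -0.41, also without passing. As a share of the CPM per kb of the 3 genes, Atp5g1 made up 7.35% ± 0.722 in TM, 10.2% ± 0.462 in TMP, 11.2% ± 0.649 in subcutaneous TMPC and 8.94% ± 0.250 in orthotopic TMPC tumours (SD, n = 3), with no overlap between TM and any other group. The size of these shares depends on the exon lengths used, 4912, 1675 and 2181 bases for Atp5g1, Atp5g2 and Atp5g3. In plain CPM the TM means of the 3 genes were 76.8, 177 and 200. Atp5g2 also shares 34.7% of its 100-base stretches with other genes, among them Gm10175, so its level is the least certain of the 3.

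**Figure D4:**
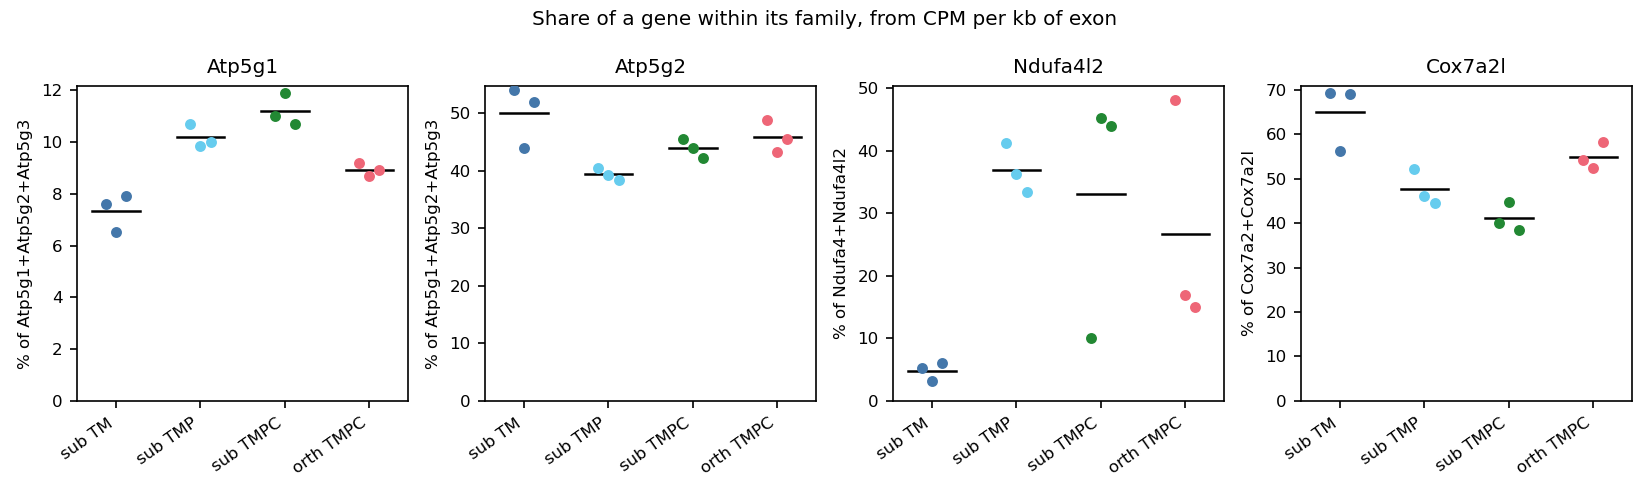
Share of 4 genes within their families, from CPM per kb of exon, in each library, with 1 point per library and black bars for group means (n = 3). Atp5g1 rises from 7.35% in TM to 11.2% in subcutaneous TMPC tumours, and Ndufa4l2 spreads from 10.1 to 45.2% within the subcutaneous TMPC group. The size of each share depends on the exon lengths used.

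Subunits that the symbol rule leaves out were read beside the members. Ndufab1, the acyl carrier protein of complex I, rose by 1.03 ± 0.14 in TMP and 0.95 ± 0.14 in TMPC against TM (adjusted p = 0.00346 and 0.00279) and fell by 0.53 between sites (SE 0.12, adjusted p = 0.025). Cycs, cytochrome c, rose by 1.00 ± 0.31 and 1.21 ± 0.32 (adjusted p = 0.0471 and 0.0201), and its -0.60 ± 0.20 between sites did not pass. Cox4i1, the common subunit 4 of complex IV, gave 0.31, 0.25 and -0.20 without passing. Atpif1, the inhibitor of the ATP synthase, gave 0.45, 0.64 and -0.17, also without passing, with TM replicate 2 at 53.1 CPM against 110 and 131 CPM in the other TM libraries.

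Assembly factors build the complexes, and their counts stand beside 14.3% of all genes higher in TMP, 18% higher in TMPC and 13.8% lower between sites. Of 14 tested complex I assembly factors 5 rose in TMP and 6 in TMPC against TM, and 4 fell between sites. Ndufaf4 gave 1.18 ± 0.18, 1.15 ± 0.18 and -0.77 ± 0.17, and Ndufaf2 0.97 ± 0.22, 1.5 ± 0.23 and -1.12 ± 0.19, and all of these passed. For complex IV assembly 3 of 21 passed in each of the 3 comparisons, at or near the share of all genes, among them Cox10, a heme A synthesis enzyme (0.75, 0.78 and -0.70). For complex V, 1, 1 and 2 of 3 passed, with Tmem70 at 0.86, 0.84 and -0.58. Of the 6 complex III factors 2 rose and 1 fell in TMP, 2 rose in TMPC, and 1 fell between sites. Among them, Uqcc2 passed in all 3 comparisons (1.04, 1.34 and -0.84), and Uqcc3 fell by 0.80 in TMP. Of the 4 complex II factors 1 rose in TMP and 2 in TMPC, and 0 passed between sites. Sdhaf3 rose by 0.93 in TMP and 1.45 in TMPC tumours, and Sdhaf4 was the other riser in TMPC.

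Of 13 genes of the outer membrane and import machinery 11 rose in TMP, 11 rose in TMPC, and 9 fell between sites, against 14.3%, 18% and 13.8% of all genes. The chaperonin Hspd1, also on this list, gave 1.48 ± 0.24, 1.62 ± 0.24 and -1.45 ± 0.30. These were the largest changes of the list in each comparison. The import receptor Tomm22 and the inner membrane import subunit Timm50 rose by 1.13 and 1.18 in TMP. The medians of this list, 0.92, 1.05 and -0.79, lay further from 0 than those of the members (0.34, 0.48 and -0.38), and this difference was not tested. Of 24 genes of the citric acid cycle and pyruvate entry 2 rose and 2 fell in TMP, 3 rose and 1 fell in TMPC, and 1 was higher and 7 lower at the orthotopic site. The counts of risers, 8.33% and 12.5% of the list, were below the share of all genes. Mdh2, mitochondrial malate dehydrogenase, gave 0.72, 0.85 and -0.74, and Pdk2, a kinase that inhibits pyruvate dehydrogenase, -1.97, -2.25 and 1.09, all past the threshold. Of 11 genes of ubiquinone synthesis 2 rose in each comparison with TM, near the share of all genes, Pdss1 by 1.34 and 1.23, and 1, Coq10b, was higher at the orthotopic site.

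Regulators of mitochondrial genes are known to act on many of these members together. Of 15 tested, 2 rose in TMP, 4 rose and 1 fell in TMPC against TM, and 1 was higher and 5 lower at the orthotopic site. In all genes 14.3%, 18% and 13.8% were higher in TMP, higher in TMPC and lower at the orthotopic site, so the TMP count of this list is at the background. Nrf1, whose motif was counted above, stood at 34.6, 36.0 and 35.2 CPM in TM, 49.3 to 55.3 in TMP, 63.3, 69.8 and 61.3 in subcutaneous TMPC and 34.8, 32.4 and 37.5 in orthotopic TMPC libraries. The TM and orthotopic libraries overlapped, and the others lay above both. Nrf1 rose by 0.49 ± 0.13 (adjusted p = 0.0258) and 0.81 ± 0.13 (adjusted p = 0.00318) and fell by 0.83 between sites (SE 0.14, adjusted p = 0.0133). Pprc1, a coactivator of the PGC-1 family, gave 0.93 ± 0.19, 1.09 ± 0.19 and -1.31 ± 0.20, all past the threshold. Tfam, which binds and transcribes mitochondrial DNA, gave 0.33 ± 0.14 in TMP, which did not pass, and 0.62 ± 0.15 and -0.72 ± 0.14, which did.

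Ppargc1a, which encodes PGC-1alpha, went the other way. It stood at 9.74, 4.90 and 7.67 CPM in TM, 4.75, 3.52 and 7.92 in TMP, 1.38, 2.72 and 1.43 in subcutaneous TMPC and 8.43, 10.4 and 3.11 in orthotopic TMPC libraries. The subcutaneous TMPC libraries were the 3 lowest of the 12. It fell by 2.07 in TMPC against TM (SE 0.47, adjusted p = 0.0128) and was higher by 2.05 ± 0.58 at the orthotopic site (adjusted p = 0.0437). Gabpa (0.28, 0.22 and -0.36), the DNA-binding part of an ETS factor, Yy1 (-0.27, 0.12 and -0.31) and Esrra (0.32, 0.39 and -0.06) did not pass.

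**Figure D5:**
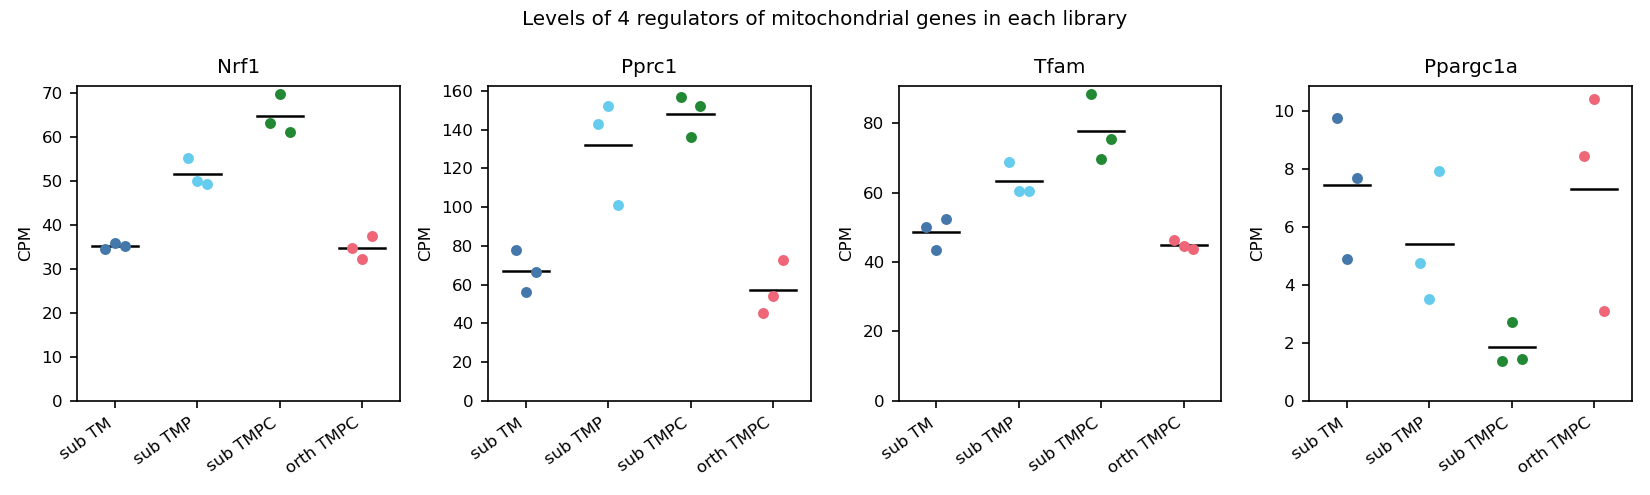
CPM of 4 regulators in each library, with 1 point per library and black bars for group means (n = 3). Nrf1, Pprc1 and Tfam have their highest mean in the subcutaneous TMPC group, where the 3 points of Ppargc1a, at 1.38 to 2.72 CPM, are its lowest.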

How the data were processed

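Bulk polyA RNA of 12 libraries in 4 groups of 3 was analysed, with groups and replicate numbers from the sample titles. The 2 single-cell samples were not analysed here. The submitters' processing notes name STAR 2.6.0, DESeq2 and the mm10 build for reads of 150 bp. No source used here gives the read counter, the annotation or how strand was handled. The authors deposited whole-number counts per gene and, beside them, normalized counts (a signal: each count over its library's size factor). From entry 12291 of the subcutaneous table on, symbols stand out of step with counts, which touches 12131 entries and 49 members, so symbols were taken by position from the other table. Counts of members equalled the deposited signal times its size factor within 0.01 reads for 33 of 82 as deposited and for 82 after realignment.

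The tests of counts used edgeR 4.0.16 under R 4.3.3 (glmQLFit, glmQLFTest, TMM factors, filterByExpr, Benjamini-Hochberg over all genes, 0.05), and checked on simulated data. The 9 subcutaneous libraries were fitted together (6 residual degrees of freedom) and the 6 TMPC libraries for the sites (4). CPM used TMM factors over the 12 libraries, and correlations log2(CPM + 0.5). Alternatives were DESeq2 1.42.0, other scalings, no filter, other sets of libraries and leaving out each library. The 3-count floor gives only a scale for low values and entered no test, interval or filter. Most genes were named by a rule, and others outside it. The rule took the largest changes per complex past the threshold with a mean of at least 5 CPM. It also took subunits chosen by role and, of other lists, the 2 smallest adjusted p. Further members named for not changing, and the sex-linked genes, were added after their values were seen. Also outside the rule, among others, are Atp5d, Atp5h, Hspd1, Ppargc1a, Tfam, Gabpa, Yy1 and Esrra, some of which changed. In the heat map 1 member is not drawn, and its values are not reported here. Members and lists were chosen with earlier results of these data known. Lengths (all annotated exons of a gene, merged) and positions come from GENCODE on mm10, which matched 81 of 82 members. Of these, 7 share over 10% of their 100-base stretches with another gene, 62 share none, and the counts of the 7 (Atp5g2, Cox7c, Ndufb4, Ndufs5, Atp5h, Ndufa12 and Ndufb9) are uncertain.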

Additional observations from a re-analysis of the deposited data

How the results depend on the processing

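Counts of members past the threshold kept their direction in TMP and TMPC against TM, except that 1 member was lower in TMPC with DESeq2 (34 called) and without TMPC replicate 3. In TMP against TM, 14 became 26 with all 12 libraries in 1 fit and 25 with library totals as the only scaling. In TMPC against TM, 24 became 42 with all 12 libraries in 1 fit. Between sites, 12 became 25 with DESeq2 and 21 with all 12 libraries in 1 fit. Leaving out 1 library gave 2 to 26, 14 to 42 and 0 to 17 members in these comparisons, and 0 to 0 in TMPC against TMP. Cox8b in TMPC against TM turned from -3.25 to 6.82 without TM replicate 2, and its values without 1 library ran from -3.80 to 6.82.

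With the replicate number as a block, the counts were 6, 18 and 2, and 0 for TMPC against TMP. Same-numbered libraries did not deviate together in every pair (correlations 0.24, 0.284 and 0.085 for TM with TMP, -0.136, 0.105 and 0.287 for TM with TMPC, -0.237, 0.202 and -0.06 for TMP with TMPC, and 0.073, -0.08 and -0.03 between sites), so the numbers were not taken to pair the libraries. With 3 libraries per group and 4 or 6 residual degrees of freedom, many log2 differences near 0.5 did not pass, which does not show that levels were equal. The cause of these moves was not tested.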
